A study of Gallus gallus with 12 samples.

Results

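The DKFZ426 probes are a group of cDNA spots on a chicken array whose IDs begin with DKFZ426. Of the 378 such probes, 108 had a value in all 12 samples, and these 108 are described here among 3754 probes with values on an array of 15769. They were chosen by the ID prefix and by having values, and the rule used no breed difference. Whether a probe had values may depend on its level, because how the authors filtered the table is not known. The choice was made with earlier results of these data known. The array was hybridised with RNA from crude bone marrow of the right tibia. The 6 broiler samples came from females of a Cobb-Cobb commercial line and the 6 layer samples from females of a Hy-Line White Leghorn pedigree line, all 15 weeks old. All birds had the same sequence of starter, grower and developer diets. The broilers were feed-restricted daily from 6 weeks of age and the layers ate freely, so the effects of breed and of feeding cannot be told apart. Each of 6 slides held 1 broiler and 1 layer sample in opposite dyes, and slides are numbered 1 to 6 in the order of the slide numbers in the sample titles. The series text can be read as 3 birds of each breed labelled with both dyes or as 6 birds of each breed, so the p-values measure the spread between slides, which may be partly technical.

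Bone marrow is the blood-forming tissue of the adult bird, and it gives rise to nucleated red cells, thrombocytes, granulocytes and lymphoid cells. It also holds fat cells, stroma and the bone-forming and bone-resorbing cells that line the cavity. In hens near the onset of lay, oestrogen drives the growth of medullary bone, a calcium store for the eggshell, inside the long bones. Layers have been selected for egg production and broilers for growth. On a spotted cDNA array each spot carries a cloned cDNA, and labelled cDNA from both samples of a slide binds it in competition, so the ratio within a spot is more exact than a level compared between slides. In unsorted marrow, fewer cells of a type and less RNA per cell cannot be told apart.

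The sources used here do not pair the probes with genes. None of the 378 IDs matched a name in the RefSeq gene table for GRCg7b, a chicken assembly (0 matches), and what the prefix stands for is not given in the labels. The probes are therefore described by ID. For the same reason the tissue could not be checked against marker genes with these probes.

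Levels are given as log2 intensities relative to the median of a sample's own channel. The deposited values proved to be natural logs. On each slide the sum of the logs of both channels, turned back to a product, fell within 0.02 of a whole number for 92.9% to 94.1% of the 1500 dimmest probes on slides 1 to 5, and for 78.5% on slide 6. By chance 4% would do so. Read as log2 values, the best fit gave 5.7% to 10.7% whole products, and as log10 values 5.9% to 9.9%. The same step returned the scale in scanner units, as the geometric mean of both channels of a spot. It takes each channel to be a whole number and scales by the smallest constant found that makes most products whole. That constant was 138318 on slide 6 and 27829 to 34848 on the others. Whether the channels of slide 6 held whole numbers was not tested, so its scanner units are less certain. On slides 1 to 5 the 108 probes had medians of 167 to 192 units, their dimmest probes lay at 142 to 162 units and their brightest at 559 to 1055 units. On slide 6 the median was 379 units, with a lowest value of 193 and a highest of 1672. All probes with values showed the same, with medians of 370 units on slide 6 and 167 to 187 units on the others.

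**Figure D1:**
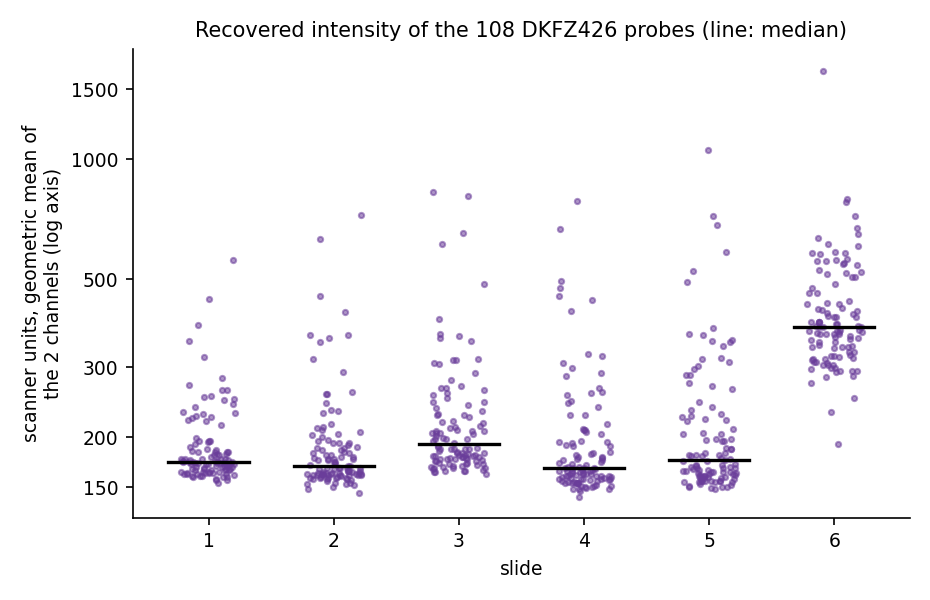
Intensity of each of the 108 DKFZ426 probes on each slide, in scanner units on a log axis, as the geometric mean of the broiler and the layer channel. Points are probes, spread sideways at random, and lines are medians. Slides 1 to 5 have medians of 167 to 192 units with a thin tail of brighter probes, while slide 6 has a median of 379 units and no dense floor. The unit scale of slide 6 is less certain than that of the others.

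The share of probes with values was 28.6% for the DKFZ426 group, between 18.7% for the C00041 probes and 36.1% for the Pat probes, and 42.0% for the DT40subNB probes. Each DKFZ426 ID ends in a number, a letter from A to P and a further number, and what these stand for is not stated in the labels. The 378 probes spread over 24 values of the first number. Among the 20 of these with at least 10 probes, the share with values ran from 9.09% for number 6 (1 of 11 probes) to 48.0% for number 14 (12 of 25), with a median of 27.0%. At least 1 probe with values was found for 23 of the 24 first numbers.

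As a group these probes lay close to the median of the probes with values. Their median level over 12 samples was 0.06, with quartiles of -0.05 and 0.25 and extremes of -0.17 and 1.86. The median was 0.03 for all tested probes, 0.65 for the DT40subNB probes, 0.23 for the Pat probes and -0.04 for the C00041 probes. To set dim probes apart, the highest mean of 30 probes with plant gene names (Cab, NAC1, PRKase and RUBISCO) was used, 0.11. The labels do not say whether these plant-named probes have a target in chicken RNA. Of the 108 probes, 44 (40.7%) lay above this level, against 39.2% of all 3720 chicken probes tested, and 64, called dimmer below, lay at or under it. The probe just above it, DKFZ426_1I24, had a mean of 0.108, and the one just below, DKFZ426_18E10, had 0.096. With slide 6 left out of the means of the 108 probes, 37 lay above this level, of which 35 were the same probes. At this level, 9 of the 44 thus passed only through their values on slide 6. The level itself was kept at 0.11, a mean over all 12 samples, and was not computed again without slide 6. On slides 2 to 5 the highest plant-named probe of each slide lay at 167 to 191 scanner units. The slide medians there were close, 167 to 187. On slide 1 the highest lay at 640 units and on slide 6 at 759, where the medians were 177 and 370. The highest was taken on each slide separately and need not be the same probe. The level thus rests on slide 1, slide 6 or both, and how far on each was not computed. Only 6 of the 108 had a mean above 1, 9 had 0.5 to 1 and 41 lay below 0.

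Of the 6 brightest probes, 5 varied more between slides than between breeds, and DKFZ426_12L4, described further on, did not. DKFZ426_20D19, the brightest, had levels of 1.56, 2.17, 2.40, 2.33, 2.61 and 0.77 in the broiler samples of slides 1 to 6. In the layer samples of the same slides it had 1.11, 2.03, 1.89, 2.15, 2.65 and 0.63. The ranges of the breeds overlapped almost fully, slide 6 was lowest in both and slide 5 highest in both. In scanner units it had 446 on slide 1, 1055 on slide 5 and 604 on slide 6. Its low level on slide 6 thus stood beside the high median of that slide. The unit scale of slide 6, here and below, is less certain.

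DKFZ426_13J21 had 1.85, 1.97, 1.92, 2.20, 1.66 and 0.54 in broiler samples, against 1.47, 1.81, 1.52, 1.82, 1.91 and 0.55 in layer samples. It was even across slides 1 to 5 and low in both samples of slide 6. DKFZ426_14C10 had 0.72, 1.06, 2.44, 1.50, 2.06 and 0.64 in broiler samples, against 0.52, 1.02, 1.79, 1.32, 1.96 and 0.31 in layer samples. Here slides 1 and 6 were low, and slides 3 and 5 were high in each breed. DKFZ426_14M1 had 0.51, 1.04, 1.98, 1.40, 2.13 and 0.53 in broilers, against 0.40, 1.15, 1.62, 1.48, 2.02 and 0.59 in layers, with the same slides low and high. DKFZ426_20D9 had 0.89, 1.02, 1.48, 1.50, 1.70 and 0.31 in broilers, against 0.81, 1.16, 1.28, 1.64, 1.54 and 0.12 in layers. The plot of the 6 brightest probes shows how far the slide partners run alike: DKFZ426_13J21 changes direction on slide 5, DKFZ426_14C10 is steepest on slide 3, and DKFZ426_12L4 has the steepest lines.

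**Figure D2:**
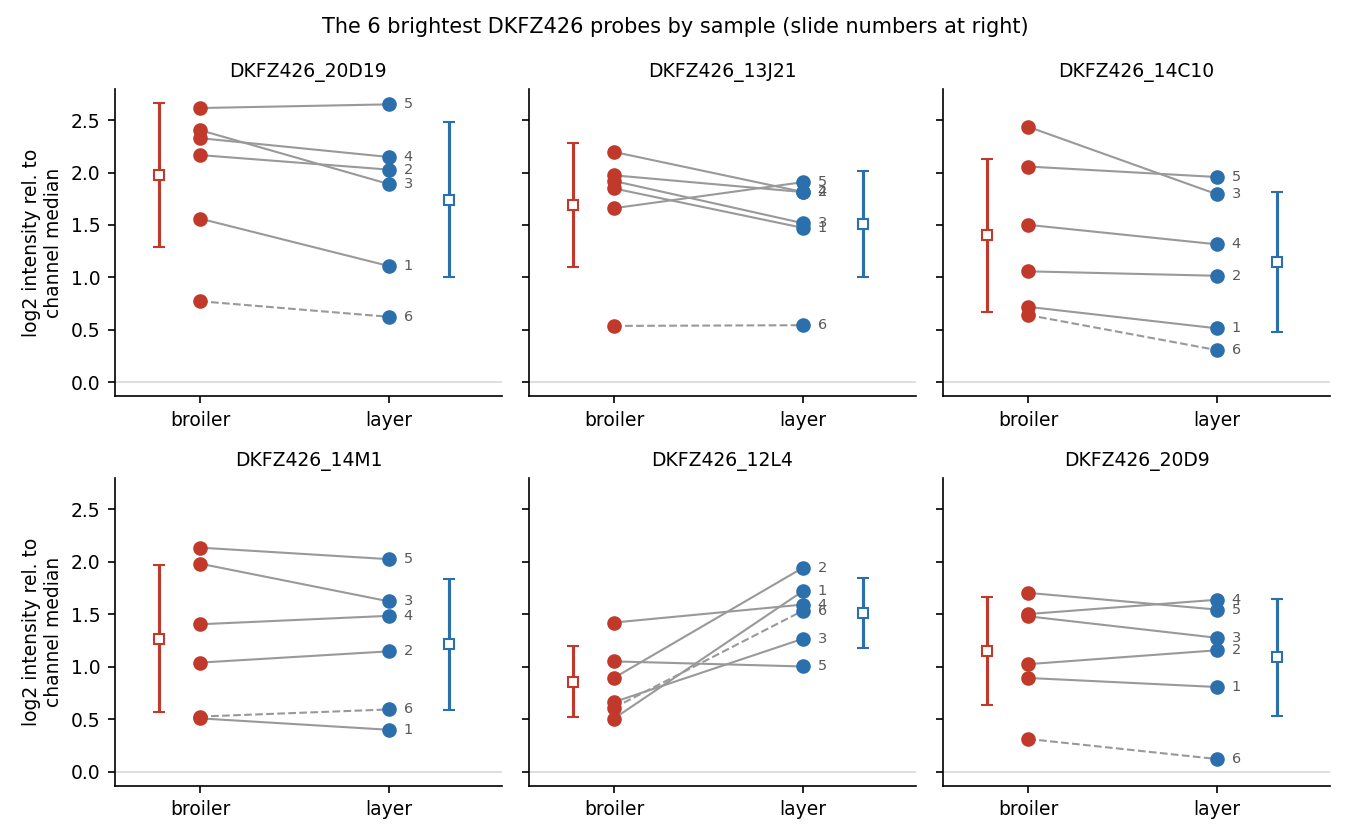
Levels of the 6 brightest DKFZ426 probes, as log2 intensity relative to the channel median, in broiler (red) and layer (blue) samples. Points are samples, grey lines join the partners of a slide (dashed for slide 6, slide number at the right), and squares with bars are the mean and SD of 6 samples. In 5 panels the lines differ in height between slides more than they slope. DKFZ426_12L4 climbs from broiler to layer steeply on slides 1, 2, 3 and 6 and slightly on slide 4.

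For the 44 brighter probes, those above the plant-probe level, the SD between slides of the mean of both partners had a median of 0.33. The SD of the broiler minus layer difference over the 6 slides had a median of 0.10. The first was the larger for 42 of the 44. The slide means of these probes spanned 0.09 to 2.27, with a median span of 0.90. Slide 6 enters these values: it was the lowest slide for 26 of the 44, and the widest span was that of DKFZ426_20A1, which was highest on slide 6. The spread without slide 6 was not computed.

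The breed comparison asks which of these transcripts differ in abundance between broiler and layer marrow. The log2 ratio within each slide was fitted over all 3720 chicken probes with limma, with a dye term and a breed term, and changes are broiler minus layer. No DKFZ426 probe passed an adjusted p of 0.05 (0 of 108, where the share over all tested probes was 0%), and the lowest limma adjusted p was 0.313. At an unadjusted limma p under 0.05 there were 10 of 108 DKFZ426 probes (9.26%), beside 6.45% of all tested probes. Of these, 7 were higher in broilers, beside 4.22% of all tested probes, and 3 were lower, beside 2.23%. Above the plant-probe level the count was 9 of 44 (20.5%), beside 14.3% of all tested probes above that level. These shares are given as a description and were not tested against each other.

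Differences were small at the deposited scale. The median size of the change was 0.03 over the 108 probes and 0.05 over the 44, against 0.04 over all tested probes and 0.06 over those above the plant-probe level. The median of the signed change was 0.0023, with 55 probes above 0 and 53 below. Above the plant-probe level the median was 0.02, with 26 above 0 and 18 below, and the median over all tested probes above that level was 0.01. The 95% interval of the change lay within 1.5-fold either way for 105 of the 108 probes, beside 3593 of all 3720 tested. It lay within 1.2-fold for 96, beside 2883 of all tested. Among the 44 these counts were 43 and 40. The rest were probes at or under the plant-probe level, where dim signal limits what a ratio shows. This limit also reaches the 44, of which 29 had a mean of 0.5 or less. With each slide's lowest intensity taken off, the changes of the 6 brightest probes were all larger in size, as described below. Taking the same amount off both channels always enlarges a within-slide difference and keeps its sign. The larger sizes thus follow mostly from the arithmetic. For the other probes this was not computed, so these intervals hold at the deposited scale only. These intervals are per probe, without adjustment. The 3 probes outside 1.5-fold were DKFZ426_12L4 and a dim pair, DKFZ426_14N2 and DKFZ426_8O11, whose wide intervals came with a single slide, as given below.

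**Figure D3:**
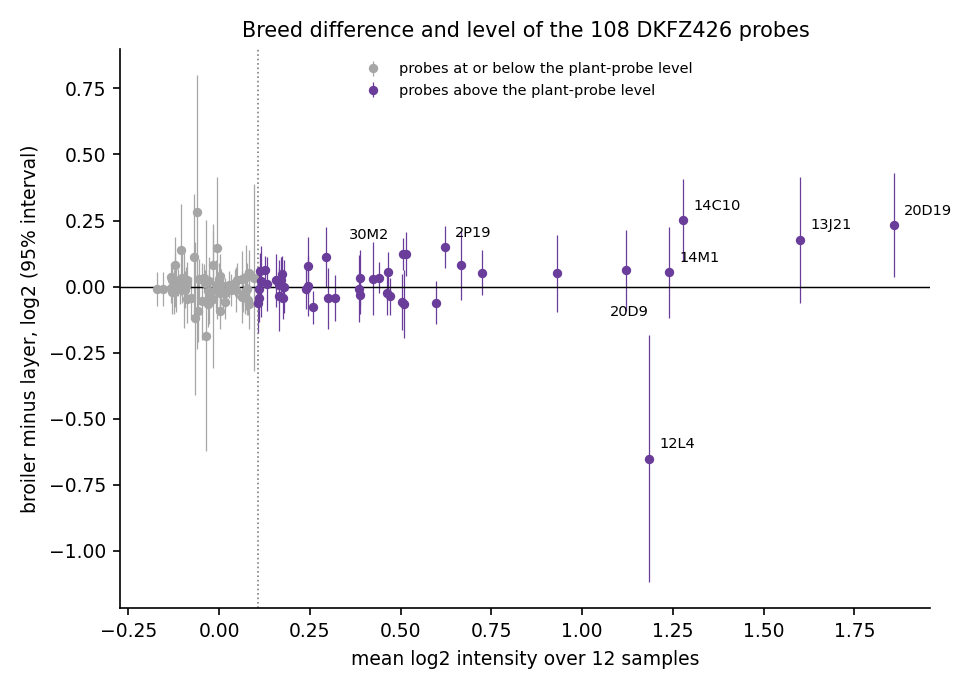
Broiler minus layer change of each of the 108 DKFZ426 probes, in log2 with its 95% limma interval, against the mean log2 intensity over 12 samples. Grey points lie at or below the plant-probe level of 0.11 (dotted line) and purple points above it. Nearly all points lie close to 0 and DKFZ426_12L4 stands apart at -0.65.

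DKFZ426_12L4 had the largest change in size of the 108, in the direction of lower signal in broilers, and ranked 4 among the 3720 tested probes by size of change. Its levels were 0.51, 0.89, 0.66, 1.42, 1.05 and 0.61 in the broiler samples of slides 1 to 6, against 1.72, 1.94, 1.27, 1.59, 1.003 and 1.53 in the layer samples. The highest broiler values, on slides 4 and 5, overlapped the layer range, and the remaining 4 broiler values lay below every layer value. Its means were 0.86 ± 0.34 in broilers and 1.51 ± 0.33 in layers (SD, n = 6 each). The change was -0.65 ± 0.19 (limma SE), a level in broilers of 0.64 times that in layers, with an unadjusted limma p of 0.0148 and an adjusted p of 0.495, so it did not pass the threshold.

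The within-slide differences of DKFZ426_12L4 were -1.21, -1.05, -0.60, -0.17, 0.05 and -0.92 on slides 1 to 6. On 4 slides they were at or below -0.60 and on the other 2 between -0.17 and 0.05, and both dye orientations held slides of each kind. The mean difference was -0.74 on the 3 slides with the broiler in the 647 dye and -0.57 on the 3 with it in the 555 dye. Its SD over slides, 0.50, was the largest of the 44 probes above the plant-probe level, where the median was 0.10. On slide 6, where the other 5 of the brightest probes were at their lowest or near it, DKFZ426_12L4 had a mean of both channels close to that of the other slides and 781 scanner units. Without slide 6 the change was -0.56, with a limma p of 0.0564.

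The size of this change depends on the background of the spots. It is not known from the labels whether the authors subtracted background, and the dimmest spot of all probes with values lay at 138 to 159 scanner units on each slide. With each slide's lowest intensity taken off both channels, an alternative added after the data were seen, the mean difference of DKFZ426_12L4 was -1.01 ± 0.81 (SD, n = 6 slides), in place of -0.65 ± 0.50. For DKFZ426_14C10 it was 0.37 in place of 0.25, and for DKFZ426_20D19 0.31 in place of 0.23.

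Among the probes higher in broilers on all 6 slides, DKFZ426_30M2 had the lowest p. Its levels were 0.54, 0.72, 0.56, 0.94, 0.71 and -0.07 in broilers, against 0.43, 0.51, 0.47, 0.82, 0.62 and -0.19 in layers. The breeds overlapped in level, but each slide had its broiler sample higher, by 0.09 to 0.21. The change was 0.12 ± 0.02 (limma SE), or 1.09-fold, with an adjusted p of 0.313.

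DKFZ426_2P19 had the next lowest p, with levels of 0.44, 1.14, 1.06, 0.63, 1.06 and -0.16 in broilers, against 0.35, 0.99, 0.76, 0.51, 1.02 and -0.34 in layers. Its change was 0.15 ± 0.03 (limma SE), or 1.11-fold, with an adjusted p of 0.341. Slide differences ran from 0.04 on slide 5 to 0.30 on slide 3. DKFZ426_14C10, one of the brightest, was higher in broilers on all 6 slides as well, with a change of 0.25 ± 0.06 (limma SE), or 1.19-fold, and an adjusted p of 0.415. DKFZ426_20D19 was higher in broilers on 5 of 6 slides, with a change of 0.23 ± 0.08 (limma SE) and an adjusted p of 0.641. None of these passed the threshold.

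In the other direction, DKFZ426_19N21 and DKFZ426_29N4 had the lowest p among probes lower in broilers on all 6 slides. DKFZ426_19N21 had levels of -0.16, -0.13, -0.18, -0.13, -0.13 and 0.46 in broilers, against -0.14, -0.09, -0.07, -0.04, -0.07 and 0.70 in layers. It lay below the plant-probe level on slides 1 to 5, at 157 to 171 scanner units, and above it on slide 6, at 555 units. Its change of -0.09 ± 0.03 (limma SE, adjusted p = 0.495) is given without a fold for that reason. DKFZ426_29N4 had 0.01, -0.01, 0.29, 0.17, 0.36 and 0.50 in broilers, against 0.02, 0.00, 0.39, 0.26, 0.45 and 0.67 in layers, with a change of -0.08 ± 0.03 (limma SE, adjusted p = 0.616). On slides 1 and 2 it was dim and its difference was -0.01 on each, while on the other 4 slides the difference ran from -0.18 to -0.08.

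Counted over slides, 6 of the 108 had the broiler sample higher on every one of the 6 slides (3.09% of all tested probes did) and 5 had it lower on every slide (2.12% of all tested probes did). For the 44 brighter probes these counts were 5 (5.27% of all tested probes of that brightness) and 1 (1.37%). Only 5 of these 11 had an unadjusted limma p under 0.05. The breed ranges overlapped in level for all 108 probes. The same was not counted over all tested probes, and levels varied widely between slides, so this count says little about these probes.

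**Figure D4:**
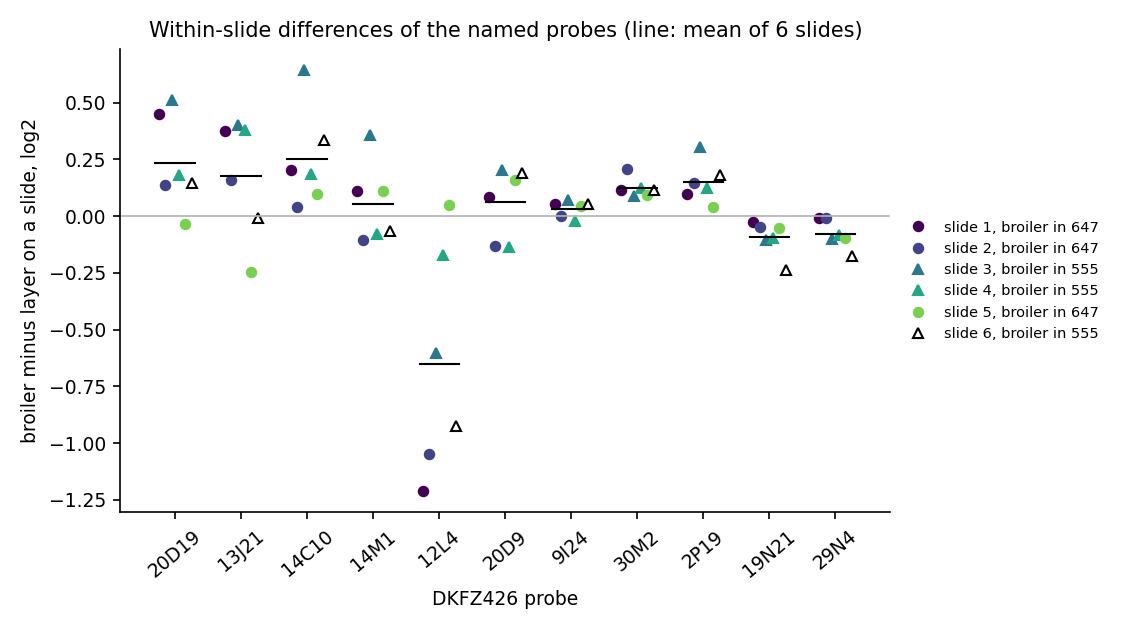
Broiler minus layer log2 difference on each slide for the 11 DKFZ426 probes named by rule. Circles are slides with the broiler sample in the 647 dye, triangles slides with it in the 555 dye, and open black triangles slide 6. Black lines are means of 6 slides. DKFZ426_12L4 spans -1.21 to 0.05, while DKFZ426_30M2 lies between 0.09 and 0.21 on every slide.

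The steadiest ratios belonged to DKFZ426_9I24 and DKFZ426_30M2, which had the smallest SD of the difference among the 44 brighter probes, 0.036 and 0.043. DKFZ426_9I24 had levels of 0.37, 0.26, 0.43, 0.60, 0.48 and 0.60 in broilers, against 0.32, 0.26, 0.36, 0.62, 0.44 and 0.55 in layers. Partners of a slide differed by at most 0.07 there. Its change was 0.03 ± 0.02 (limma SE) with a 95% interval from -0.02 to 0.09 at the deposited scale. The probe was named for its small SD, so a narrow interval follows from that choice and sets no bound on a breed difference. It lay at 203 to 255 scanner units on slides 1 to 5, and its change with the slide's lowest intensity taken off was not computed. Among the brightest, DKFZ426_14M1 had a change of 0.05 with an interval from -0.12 to 0.23, and DKFZ426_20D9 one of 0.06 with an interval from -0.09 to 0.22. DKFZ426_13J21 had 0.18 with an interval from -0.06 to 0.41, higher in broilers on 4 of 6 slides.

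Slide 6 stood apart for these probes. Over all 108, the Spearman correlation of levels between samples of different slides was 0.672 to 0.912 among slides 1 to 5, and -0.181 to 0.086 between a sample of slide 6 and one of the others. The partners of slide 6 correlated at 0.747, against 0.924 to 0.970 on slides 1 to 5. These are correlations across probes, which are no independent replicates, and partners share their spots. The slide 6 mean of a probe lay above all its other slide means for 39 probes and below all of them for 48.

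For the 44 brighter probes alone, the samples of slide 6 correlated with those of the others at -0.386 to -0.143, but these probes were chosen on a mean that includes slide 6. The groups of probes differed in how far slide 6 kept their order. The correlation of the slide 6 means with the mean of slides 1 to 5 was -0.045 for the DKFZ426 probes, -0.065 for C00041, 0.164 for Pat and 0.658 for DT40subNB, the brightest group. The same measure for slide 5 against slides 1 to 4 was 0.878, 0.696, 0.922 and 0.967 for these groups in the same sequence. The plant-named probes spanned 172 to 759 scanner units on slide 6. That span held 5 of the 6 brightest DKFZ426 probes, which had 432 to 604 units there, but not DKFZ426_12L4. On slides 2 to 5 the plant-named probes lay at 138 to 191 units, and on slide 1 their highest was 640. The cause of the high scanner units of slide 6 was not tested, and the unit scale of that slide is less certain.

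**Figure D5:**
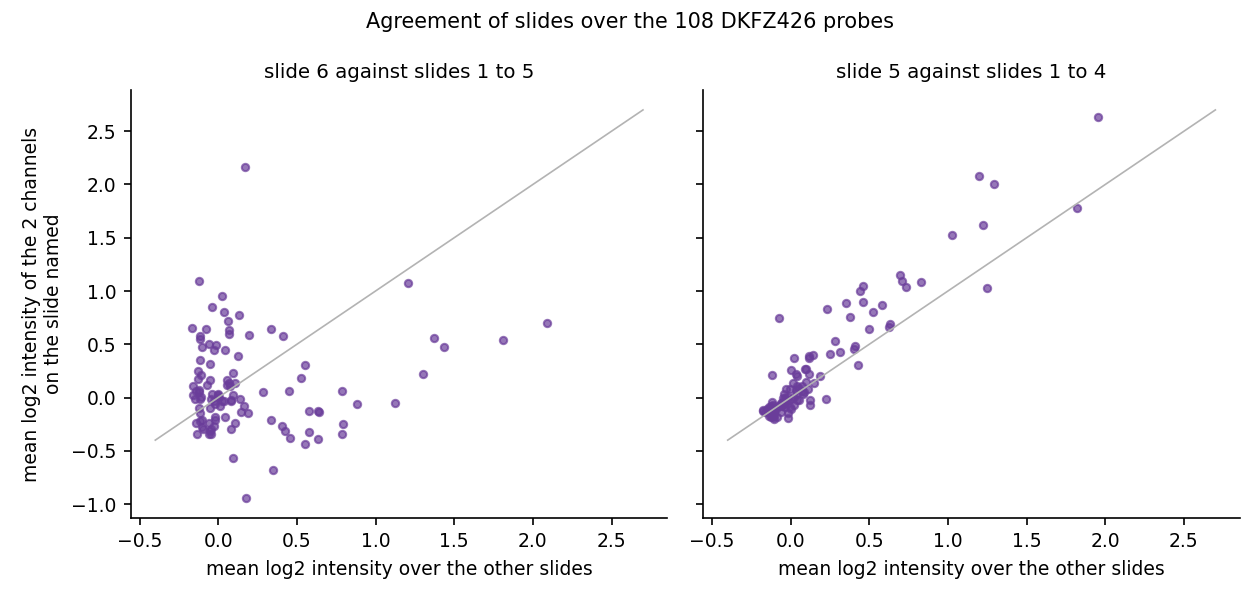
Mean log2 intensity of both channels for the 108 DKFZ426 probes on slide 6 against the mean of slides 1 to 5 (left) and on slide 5 against the mean of slides 1 to 4 (right). Points are probes and the grey line marks equal values. Slide 5 rises with the other slides (Spearman 0.878) and slide 6 does not (Spearman -0.045).

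Single probes show the same in their values. DKFZ426_20A1 had 2.04 in the broiler and 2.30 in the layer sample of slide 6, the highest slide mean of any DKFZ426 probe there, and -0.14 to 0.42 in the 10 samples of the other slides. DKFZ426_8O11 had a broiler minus layer difference of 1.53 on slide 6 and of -0.002 to 0.08 on slides 1 to 5. DKFZ426_14N2 had -1.23 on slide 6 and 0.00 to 0.06 elsewhere. These 3 probes are named because their slide 6 values were extreme. Across the 64 dimmer probes, the SD of the within-slide difference was 0.36 on slide 6, against 0.05 to 0.10 on slides 1 to 5.

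Leaving out slide 6 gave 12 probes of 108 (11.1%) at an unadjusted limma p under 0.05, beside 10.4% of all tested probes, and a lowest adjusted p of 0.1995. That lowest value was of DKFZ426_18E10, which lay just under the plant-probe level. Its difference was 0.08 to 0.25 on slides 1 to 5 and -0.77 on slide 6. Of the 10 probes under 0.05 on all slides, 8 were among these 12, and the other 2 included DKFZ426_12L4. On slides 1 to 5 alone, 9 of the 108 were higher in broilers on every slide (5.27% of all tested probes) and 7 were lower (3.66% of all tested probes).

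The dye term compares both dyes over the 3 slides of each orientation. In the dye term of the same limma fit, 0 of 108 probes passed an adjusted p of 0.05 (0% of all tested probes did), with a lowest adjusted p of 0.610. At an unadjusted limma p under 0.05 there were 3 of 108 (2.78%), beside 5.78% of all tested probes. All 3 were brighter in the 647 dye, which held for 1.72% of all tested probes. The 647 minus 555 difference ran from -0.25 to 0.20 over the 108 probes. These ends were DKFZ426_8O11 and DKFZ426_14N2, the dim pair with extreme differences on slide 6 alone. The median size of the dye difference was 0.03, close to the median size of the breed change. The dye difference was larger in size than the breed change for 43 of the 108.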

How the data were processed

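The deposited table holds a value per probe and sample, and how the authors scanned, background-corrected, filtered and normalized it was not given in the sources used here. Values in the deposited table were read as natural log intensities centred near 0 per column, from the whole-number products described above, and log2 values were obtained by dividing them by 0.693.

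Samples were grouped by breed, slide and dye from their titles. The log2 ratio of 647 over 555 was fitted in limma 3.58.1 (lmFit, eBayes; R 4.3.3) over 3720 probes, leaving out 34 control-like probes, with Benjamini-Hochberg adjustment over all of them. The ratio makes the slide a block. The fit had 4 residual degrees of freedom plus 1.75 from the variance model and was tested on simulated data. The simulation gave each probe the same spread on every slide and took slides as independent. It therefore does not cover the wider spread of slide 6 or birds shared between slides. Pairing comes from the shared slide, and the partners' deviations from their breed means correlated at 0.701 to 0.868. Named probes are the 6 brightest, those with the 3 largest and 2 smallest SDs of the difference above the plant-probe level, and the 2 with the lowest p in each direction among probes with one sign on all slides. The probes, the plant-probe level and the alternatives were chosen with earlier results of these data known. The planned tissue markers could not be used without gene names. The number of slides, 6, limits the precision.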

Additional observations from a re-analysis of the deposited data

Results flagged for a closer look

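Levels, slide differences and sample summaries were examined in 39 sets of 6 values for 1 value far from the others, and 7 were picked out where chance alone gives about 5% of sets. Slide 6 held 6 of the 7. The sets are not independent, because slide partners share their spots and some probes were named for extreme values, so the 5% is only a rough guide. DKFZ426_13J21 had 0.54 in the broiler sample of slide 6, where the nearest other broiler sample had 1.66, and 0.55 in the layer sample of slide 6, where the nearest other layer sample had 1.47. DKFZ426_19N21 had 0.46 in the broiler sample of slide 6 (nearest other -0.13) and 0.70 in its layer sample (nearest other -0.04). Over the 108 probes, the broiler sample of slide 6 had a mean Spearman correlation of 0.013 with the other broiler samples, against at least 0.616 for each of those. The layer sample of slide 6 had -0.050 with the other layer samples, against at least 0.561 for each of those. The broiler minus layer difference of DKFZ426_30M2 was 0.21 on slide 2, with 0.13 as the nearest other.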

How the results depend on the processing

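The count of DKFZ426 probes past an adjusted p of 0.05 was 0 for breed and for dye in limma and in each alternative: within-slide loess, median centring, quantile normalization, the values taken as log2, no dye term (breed only), no slide block, slide as a random block, a trended and robust variance model, weights by slide, only probes above the plant-probe level, and each slide left out. The count at an unadjusted limma p under 0.05 was 10 as reported. It was 1 with no replicate block, 5 with slide as a random replicate block and 16 with weights by slide. It was 6 when only probes above the plant-probe level were fitted. That fit leaves out 64 of the 108, but only 1 of the 10, DKFZ426_19N21, is among them. On the 44 probes it keeps, the limma fit as reported counted 9. Why the counts differ between these fits was not tested. Leaving out 1 slide gave 7 to 12. The median change over the probes, 0.0023, ranged from -0.0077 to 0.0087 with 1 slide left out, and was 0.022 over the 44 brighter probes alone, which is another set of probes. Of 181 values of the 11 named probes under the alternatives, 1 reversed direction, with a limma adjusted p of 0.8543. Another 6 kept their direction and came from subtracting the slide's lowest intensity, which was chosen after seeing the data and has no test. That subtraction cannot change the sign of a difference on a slide, so their kept direction carries little weight. The remaining 174 kept their direction and stayed above an adjusted p of 0.05 in limma. The lowest was 0.0872 for DKFZ426_30M2 with weights by slide. DKFZ426_14M1 ranged from -0.0185 without slide 3, a reversal, to 0.0912 without slide 4. Signs that the naming rule fixed on all slides could not reverse when a slide was left out. The 64 dimmer probes lay close to the plant-named probes in intensity, which limits what their ratios show.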

Other observations

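The agreement of broiler minus layer differences between slides was set out for the 44 DKFZ426 probes above the plant-probe level. The Pearson correlation across these probes had a mean of 0.293 over the 6 pairs of slides with the same dye orientation and 0.348 over the 9 pairs with opposite orientation, with ranges of -0.167 to 0.791 and -0.303 to 0.758. Without DKFZ426_12L4 the means were 0.132 and 0.237. These are descriptions across probes, and partners of a slide share their spots.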
